A study of Mus musculus with 18 samples.

Results

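Bacterial endotoxin (lipopolysaccharide) and flagellin reach the liver through the portal vein, and the genes described here encode the proteins that detect them there and the brakes on the NF-κB pathway that they switch on. LBP, a plasma protein made by hepatocytes, takes up lipopolysaccharide and passes it to CD14, which loads it onto MD-2 (Ly96) bound to TLR4. TLR2 binds bacterial lipoproteins and TLR5 binds flagellin. These receptors signal through the adaptor MyD88 to release NF-κB, and NF-κB in turn induces its own inhibitors IκBα (Nfkbia) and A20 (Tnfaip3), while IRAK-M (Irak3) holds back the receptor kinases.

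The set was fixed by name and held 10 genes of the 19057 rows of the liver expression table: Lbp, Cd14, Ly96, Tlr4, Tlr2, Tlr5, Myd88, Nfkbia, Tnfaip3 and Irak3. All 10 were found in the table. Liver RNA had been sequenced from 18 male ICR mice in 6 groups of 3. Con mice were controls, given saline by the paper's methods, and STZ mice received streptozotocin, a toxin of the insulin-producing beta cell that gives a model of type 1 diabetes. A10-FMT and Con-FMT mice received streptozotocin and then gut contents of donors that had been dosed with alginate oligosaccharide (AOS, 10 mg/kg) or with water, each pooled over its donors. AOS mice received AOS at 10 mg/kg without streptozotocin, and STZ+AOS mice received both. All mice were 10 weeks old by their labels, and streptozotocin was common to the STZ, A10-FMT, Con-FMT and STZ+AOS groups. Values are RPKM, a gene's reads divided by transcript length and by library size, so levels can be compared between genes. Changes are differences of log2(RPKM + 1), which understate the change of genes near 1 RPKM.

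The 250 bases before the RefSeq start of transcription are shown for Nfkbia and Tlr5, the members that were called higher and lower in both comparisons of mice with and without streptozotocin given below. Each is written 5′ to 3′ on the strand of its gene (build GRCm38.p6), and capitals mark matches of either strand to the κB-type letters GGNNNTTCC. The Nfkbia window lay at chr12:55492648-55492897 on the minus strand and the Tlr5 window at chr1:182954538-182954787 on the plus strand.
Nfkbia: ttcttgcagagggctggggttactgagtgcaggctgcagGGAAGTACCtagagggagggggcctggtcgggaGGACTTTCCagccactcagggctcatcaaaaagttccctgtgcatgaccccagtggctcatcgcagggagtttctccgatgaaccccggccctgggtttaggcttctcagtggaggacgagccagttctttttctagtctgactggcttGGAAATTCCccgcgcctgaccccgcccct
Tlr5: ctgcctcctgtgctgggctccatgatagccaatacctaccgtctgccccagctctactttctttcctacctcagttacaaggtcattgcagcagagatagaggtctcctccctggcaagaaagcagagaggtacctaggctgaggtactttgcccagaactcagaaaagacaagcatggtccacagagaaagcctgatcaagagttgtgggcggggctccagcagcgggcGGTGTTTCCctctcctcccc
The Nfkbia window held 3 stretches of matching letters, which began 211, 178 and 29 bases before the start site, and the Tlr5 window held 1, which began 20 bases before it. These letters were present in 15.7% of all 32851 promoter windows of this length. Of the other members, the Tlr2 window held GGGAATTCC, 172 bases before its start, with a match of the other strand that overlaps it. The upstream Tnfaip3 window held GGAATTTCC 24 bases and GGAAATCCC 12 bases before its start, and the other Tnfaip3 window held GGTTATTCC 89 bases before its start. The windows of Myd88 and Irak3 held no match. In all, 5 of the 8 windows of members held such letters. These are matches of letters and not measured binding sites. RefSeq windows were found for 6 of the 10 members, and those of Tlr4, Lbp, Ly96 and Cd14 are not shown.

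Several libraries stood apart. Con mouse 3 lay between Con mice 1 and 2 for 329 of the 330 well expressed genes that differed by at least 0.5 log2 units between those mice (99.7%), and a weighted mean of 0.54 parts of mouse 1 and 0.46 parts of mouse 2 matched it with an SD of 0.0848 log2 units, against an SD of 0.339 between mice 1 and 2. AOS mouse 3 likewise lay between AOS mice 1 and 2 for 145 of 147 such genes (98.6%), with an SD of 0.0951 around 0.36 parts of mouse 1 and 0.64 parts of mouse 2. In the other 16 libraries the share was 0 to 87.4% and the SD 0.135 to 0.549. The spread within Con and AOS may therefore understate that between mice, what links these libraries was not tested, and the calls of the members and the counts of most pathway lists are also given without Con mouse 3 and AOS mouse 3. The acute-phase gene Saa1 stood at 3430 RPKM or more in Con mice 1 and 3 and STZ+AOS mouse 1 and at 454 RPKM or less in the other 15 libraries. Across all tested genes the median change was 0.21 in STZ against Con and 0.21 in STZ+AOS against AOS on the log2 scale, and scaling each library by its median ratio removed it. With that scaling the share of calls that were higher went from 85.7% to 51.55% in STZ against Con, and from 83.9% to 50.0% in STZ+AOS against AOS. The hepatocyte markers summed to 37359.5 RPKM or more in every library, and no B cell or T and NK cell marker passed the filter on low values.

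**Figure D1:**
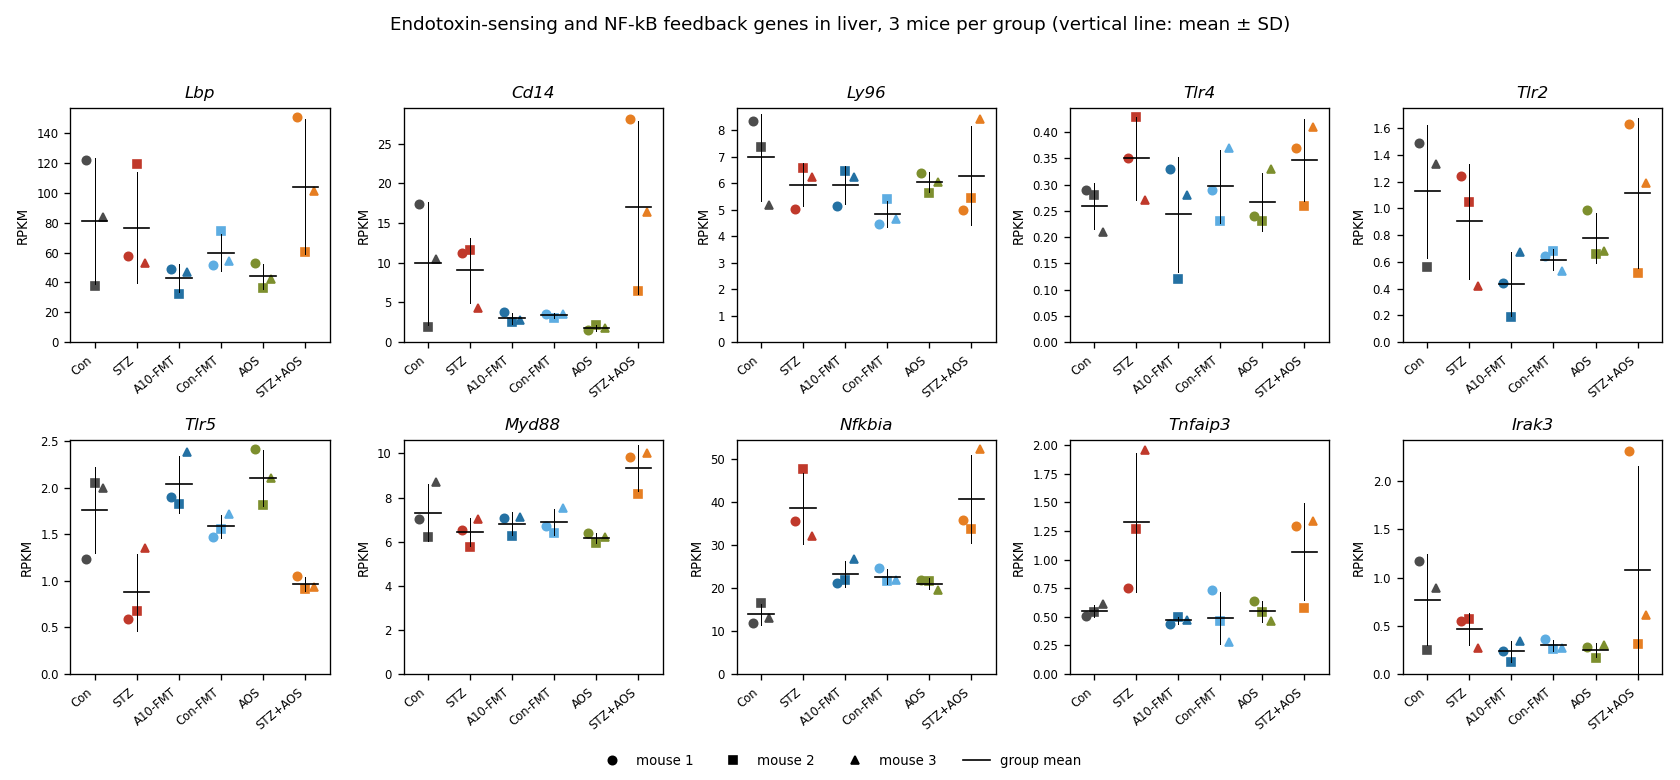
RPKM (linear axes from 0) of the 10 genes in each of 18 mice, with marker shapes for mouse number within a group (numbers do not pair mice across groups), horizontal lines for group means and vertical lines for mean ± SD. Nfkbia was at 32.04 RPKM or more in the 6 STZ and STZ+AOS mice and at 26.7 RPKM or less in the other 12, while Tlr5 was lowest in those same groups.

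A gene was tested where 3 or more libraries read 1 RPKM or higher. This left 7 of the 10 members in the model of the 12 Con, STZ, A10-FMT and Con-FMT libraries, without Tlr4, Tnfaip3 and Irak3, and 8 in the model of all 18 libraries, without Tlr4 and Irak3. Tnfaip3 entered only through STZ and STZ+AOS libraries, in which it was high. In STZ against Con, 1 of 7 tested members was called higher (Nfkbia) and 1 lower (Tlr5) at an adjusted p under 0.05 (limma), where 38.5% of all 10602 genes were called. In STZ+AOS against AOS, a comparison that shares no mouse with the former, 4 of 8 were called higher (Nfkbia, Cd14, Lbp and Myd88) and 1 lower (Tlr5), where 37.9% of all 10822 genes were called. The median change was -0.15 over the 7 members tested in the first comparison and 0.46 over the 8 in the second, beside 0.21 over all genes in each. These 8 include Tnfaip3, so the medians are not over the same genes. The members called in STZ against Con, 2 of 7, were thus not above the share of all genes.

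**Figure D2:**
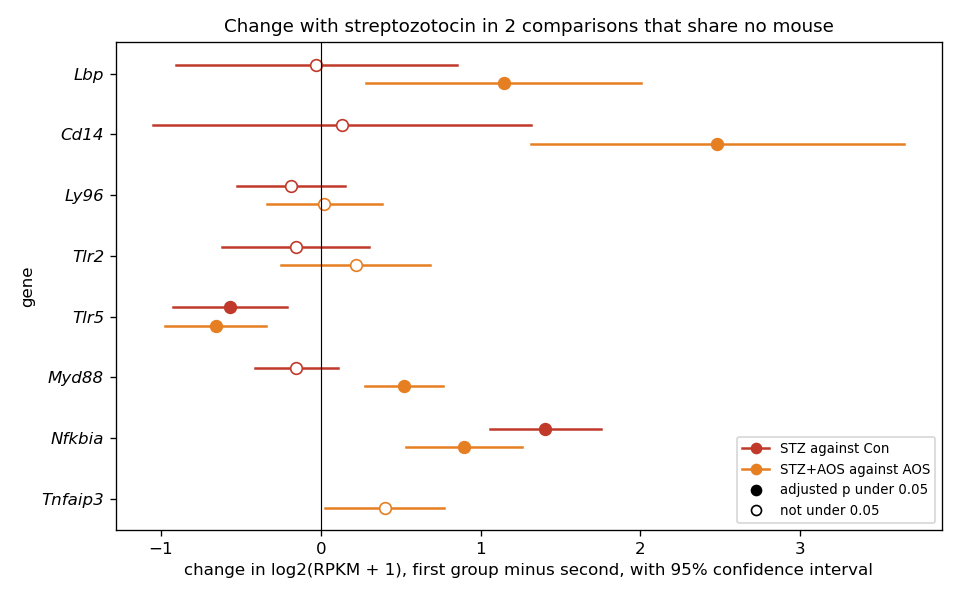
Change in log2(RPKM + 1) of each tested member with its 95% confidence interval, in STZ against Con (12-library model) and in STZ+AOS against AOS (18-library model); filled points have an adjusted p under 0.05. Nfkbia lay to the right and Tlr5 to the left of 0 in both, whereas Cd14, Lbp and Myd88 were called only in STZ+AOS against AOS, a difference that was not called in its own test.

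Nfkbia (chromosome 12, 55489410 to 55492647, minus strand) encodes IκBα, which retains NF-κB in the cytoplasm. It stood at 11.9, 16.5 and 13.0 RPKM in Con mice 1, 2 and 3, and at 35.5, 47.7 and 32.04 RPKM in the STZ mice. The groups did not overlap, and the mean was 2.78-fold higher in STZ. The change was 1.4 ± 0.16 (SE, n = 3 against 3, limma adjusted p = 0.000348), above the median of all genes of 0.21. It was called in all 18 alternatives, with changes of 1.14 to 1.53, and without Con mouse 3 it was 1.37 (limma adjusted p = 0.00295). The groups of 3 mice did not overlap for 47.7% of all tested genes in this comparison.

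The transplanted mice stood between Con and STZ for Nfkbia. It read 21.1, 21.8 and 26.7 RPKM in the A10-FMT mice and 24.5, 21.5 and 21.8 RPKM in the Con-FMT mice. Neither group overlapped with Con or with STZ, and the A10-FMT and Con-FMT mice overlapped with each other. Against Con, it was called higher in A10-FMT (0.71 ± 0.16, limma adjusted p = 0.0136) and in Con-FMT (0.68 ± 0.16, limma adjusted p = 0.0167), where 18.4% and 19.4% of all genes were called. Without Con mouse 3 these adjusted p-values became 0.0547 and 0.0613 (limma), past the threshold. The call was also lost without Con mouse 1 in either (limma adjusted p = 0.0634 and 0.0723), without A10-FMT mouse 3 in the first (limma adjusted p = 0.0635) and without Con-FMT mouse 1 in the second (limma adjusted p = 0.0698). Against STZ, it was 0.69 lower in A10-FMT (adjusted p = 0.0695) and 0.72 lower in Con-FMT (adjusted p = 0.0719), neither of which passed (limma). Without STZ mouse 3 both were called, at -0.81 (limma adjusted p = 0.0127) and -0.84 (limma adjusted p = 0.00932). With quantile scaling and median centring the change in Con-FMT against Con was 0.44 and 0.48 and not called (limma adjusted p = 0.0758 and 0.0505), and Con-FMT against STZ was called under all 3 other scalings (-0.67 to -0.70, limma adjusted p of 0.0473 to 0.0491). These 4 comparisons share their Con or STZ mice, so that they are not independent.

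In the mice given AOS directly, Nfkbia read 21.8, 21.5 and 19.4 RPKM without streptozotocin, above all Con mice. The change against Con was 0.58 ± 0.17 and was not called (limma adjusted p = 0.524), where 0.00924% of all genes (1 gene) were called and 24.4% had groups that did not overlap. With streptozotocin it read 35.8, 33.7 and 52.2 RPKM, which overlapped with STZ and lay above every AOS mouse. STZ+AOS exceeded AOS by 0.90 ± 0.17 (limma adjusted p = 0.00143), and without AOS mouse 3 and Con mouse 3 by 0.85 (limma adjusted p = 0.0136). The groups did not overlap for 49.1% of all genes in this comparison. The order of group means from low to high was Con, AOS, Con-FMT, A10-FMT, STZ and STZ+AOS, in which Con was apart from AOS and A10-FMT from STZ, while the other neighbours overlapped.

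Tlr5 (chromosome 1, 182954788 to 182976044, plus strand), the flagellin receptor, went the other way. It read 1.23, 2.05 and 2 RPKM in Con and 0.59, 0.68 and 1.35 RPKM in STZ, so that STZ mouse 3 stood above Con mouse 1 and the groups overlapped. The mean was 2.02-fold lower in STZ, a change of -0.57 ± 0.16 (limma adjusted p = 0.0197). This call was lost without Con mouse 2, Con mouse 3, STZ mouse 1 or STZ mouse 2 (changes of -0.46 to -0.50, limma adjusted p of 0.0649 to 0.0724), and when only the 6 mice compared were fitted (limma adjusted p = 0.0655). In STZ+AOS it read 1.05, 0.91 and 0.93 RPKM and in AOS 2.41, 1.81 and 2.10 RPKM, with no overlap. There the mean was 2.19-fold lower and the change was -0.66 ± 0.15 (limma adjusted p = 0.00374), called at an adjusted p under 0.05 in all 16 alternatives that kept this threshold and tested the gene, though not within the stricter limits of the study. The change was -0.66 without AOS mouse 3 and Con mouse 3 (limma adjusted p = 0.0199).

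In the transplanted mice Tlr5 read 1.90, 1.82 and 2.38 RPKM (A10-FMT) and 1.47, 1.56 and 1.72 RPKM (Con-FMT), all above every STZ mouse. The change against STZ was 0.71 ± 0.16 for A10-FMT (limma adjusted p = 0.0695) and 0.48 ± 0.16 for Con-FMT (limma adjusted p = 0.144). Neither was called with all mice, and both were called without STZ mouse 3 (0.89 with adjusted p = 0.00514, and 0.66 with adjusted p = 0.0157, limma). The order of group means was STZ, STZ+AOS, Con-FMT, Con, A10-FMT and AOS, and only STZ+AOS and Con-FMT did not overlap among neighbours.

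Lbp (chromosome 2, 158306493 to 158332852, plus strand) was the most abundant member, at 32.2 to 151 RPKM. It read 122, 37.6 and 83.6 RPKM in Con and 57.6, 120 and 52.7 RPKM in STZ, groups that overlapped widely, with a change of -0.03 ± 0.40 (95% interval -0.91 to 0.85). In AOS it read 53.3, 36.3 and 42.4 RPKM, and in STZ+AOS 151, 60.1 and 101.4 RPKM, all 3 above every AOS mouse. This change was 1.14 ± 0.40 (limma adjusted p = 0.036) and was lost without AOS mouse 2, AOS mouse 3, STZ+AOS mouse 1 or STZ+AOS mouse 3, at changes of 0.83 to 1.13 (limma adjusted p of 0.08 to 0.144). It was also lost under each of the 3 other scalings, for example at 0.90 with median-ratio scaling (limma adjusted p = 0.123), without a filter on low values (limma adjusted p = 0.0643), and without AOS mouse 3 together with Con mouse 3 (1.13, limma adjusted p = 0.101). The transplanted mice read 49.2, 32.2 and 47.1 RPKM (A10-FMT) and 51.4, 74.6 and 54.1 RPKM (Con-FMT).

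Cd14 (chromosome 18, 36725067 to 36726798, minus strand) varied more than any other tested member, from 1.46 to 28.1 RPKM. It is made by macrophages and, in inflamed liver, also by hepatocytes, and in bulk liver fewer cells of a type and less RNA per cell cannot be told apart. It read 17.4, 1.95 and 10.4 RPKM in Con, and 11.2, 11.6 and 4.34 RPKM in STZ. The groups overlapped, with a change of 0.13 ± 0.54 (95% interval -1.05 to 1.32). In AOS it read 1.46, 2.18 and 1.75 RPKM and in STZ+AOS 28.1, 6.42 and 16.4 RPKM. The STZ+AOS mean was 9.45-fold that of AOS, and the change was 2.48 ± 0.55 (limma adjusted p = 0.00337), called at an adjusted p under 0.05 in all 17 alternatives that kept this threshold, though not within the stricter limits of the study, which ask for an adjusted p of at most 0.001. These alternatives gave, among others, 2.47 without AOS mouse 3 and Con mouse 3 (limma adjusted p = 0.0186) and 2.03 without STZ+AOS mouse 1 and Con mice 1 and 3 (limma adjusted p = 0.00395). In A10-FMT it read 3.81, 2.49 and 2.75 RPKM and in Con-FMT 3.50, 3.01 and 3.58 RPKM, all 6 below every STZ mouse. The changes against STZ were -1.23 ± 0.54 and -1.10 ± 0.54, and were not called (limma adjusted p = 0.226 and 0.275).

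The levels of Lbp, Cd14, Tlr2 and Irak3, picked because they were high in some of the same mice, were read beside the acute-phase genes. Con mouse 1 was the second highest of 18 libraries for each of these 4 genes, and STZ+AOS mouse 1 was the highest for each, while Con mouse 2 stood at 37.6, 1.95, 0.56 and 0.25 RPKM. Con mouse 3, also high in Saa1, ranked 3 for Tlr2 and Irak3 but 5 for Lbp and 6 for Cd14, below mice with low Saa1 such as STZ+AOS mouse 3. As Con mouse 3 lay close to a weighted mean of Con mice 1 and 2, its levels are not read as those of a separate mouse. The ranks of the other members in Con mouse 1, Con mouse 3 and STZ+AOS mouse 1 varied. Nfkbia ranked 18, 17 and 3, Tlr5 13, 5 and 14, and Ly96 2, 13 and 16. Myd88 ranked 8.5, 3 and 2, Tnfaip3 12, 8 and 3, and Tlr4 8.5, 17 and 3.5 (ties share a mean rank). Saa1, a serum amyloid made by the liver during inflammation, read 6422, 296 and 3570 RPKM in Con mice 1, 2 and 3. Against Con, 8 of 20 acute-phase genes were lower and 1 higher in STZ, beside 5.52% lower and 33% higher over all genes. In STZ+AOS against AOS 5 of 20 were higher, not above the 31.8% of all genes, and none was lower, beside 6.11%. Without Con mouse 3 and AOS mouse 3 these counts were 4 lower and 1 higher, and 2 higher. Con mice 1 and 3 read 122 and 83.6 RPKM for Lbp, above Con mouse 2, so leaving them out raises the change by construction. In a fit without them, which leaves 1 Con mouse and takes the spread from the other groups, the change of Lbp was 0.91 in place of -0.03. No conclusion is drawn from this shift. Only 296 of all genes were called in that fit, in place of 4087, so its counts of calls are not read here. The part of the acute-phase state of these mice in the members' values was not tested.

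**Figure D3:**
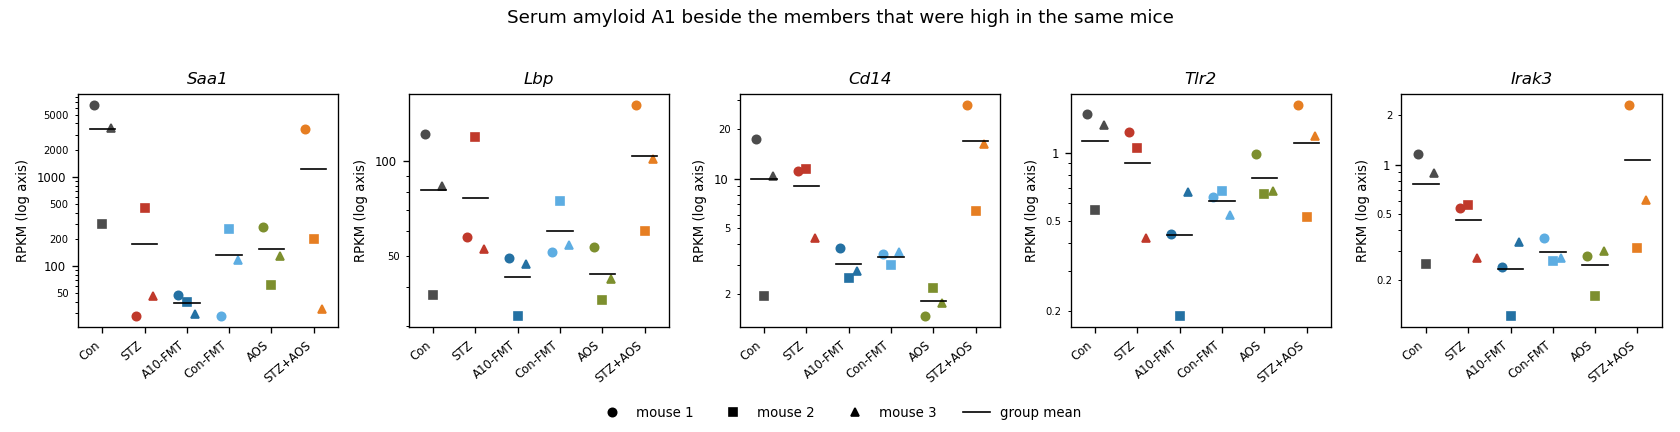
RPKM (log axes) of Saa1, Lbp, Cd14, Tlr2 and Irak3 in each mouse, with group means as lines. STZ+AOS mouse 1 was the highest of 18 mice for Lbp, Cd14, Tlr2 and Irak3, Con mouse 1 the second highest, and Con mouse 2 stood far below Con mice 1 and 3 in all 5 genes. Con mouse 3 lay close to a weighted mean of Con mice 1 and 2 across well expressed genes.

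Ly96 (chromosome 1, 16688051 to 16709611, plus strand), the lipopolysaccharide-binding partner of TLR4, stayed within 4.46 to 8.42 RPKM and was called in no comparison. It read 8.37, 7.39 and 5.17 RPKM in Con and 5.02, 6.57 and 6.24 RPKM in STZ, which overlapped. Its change was -0.19 ± 0.15 in STZ against Con (95% interval -0.52 to 0.15) and 0.02 ± 0.17 in STZ+AOS against AOS. The lowest group was Con-FMT, at 4.46, 5.41 and 4.65 RPKM, and its change against Con (-0.43 ± 0.15, limma adjusted p = 0.0682) was called only without Con mouse 3 (-0.61, limma adjusted p = 0.0354) and with median centring (-0.64, limma adjusted p = 0.0448). Tlr4 (chromosome 4, 66827584 to 66930284, plus strand) was never above 0.43 RPKM, so that no test was made. It read 0.29, 0.28 and 0.21 RPKM in Con, 0.35, 0.43 and 0.27 RPKM in STZ, 0.33, 0.12 and 0.28 RPKM in A10-FMT and 0.29, 0.23 and 0.37 RPKM in Con-FMT. In AOS it read 0.24, 0.23 and 0.33 RPKM and in STZ+AOS 0.37, 0.26 and 0.41 RPKM, and all 6 groups overlapped. Tlr2 (chromosome 3, 83836272 to 83841767, minus strand) ranged from 0.19 to 1.63 RPKM and passed the filter through 4 of 12 libraries. It read 1.49, 0.56 and 1.33 RPKM in Con, 1.24, 1.05 and 0.42 RPKM in STZ and 0.44, 0.19 and 0.67 RPKM in A10-FMT. The Con-FMT mice read 0.64, 0.68 and 0.53 RPKM, the AOS mice 0.99, 0.66 and 0.68 RPKM and the STZ+AOS mice 1.63, 0.52 and 1.19 RPKM. Neighbouring groups in the order of the means all overlapped, and no comparison was called.

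Myd88 (chromosome 9, 119335934 to 119341411, minus strand) read 7.03, 6.19 and 8.72 RPKM in Con, 6.52, 5.76 and 7.03 RPKM in STZ, 7.09, 6.24 and 7.13 RPKM in A10-FMT and 6.7, 6.4 and 7.53 RPKM in Con-FMT, groups that all overlapped. The change in STZ against Con was -0.15 ± 0.12 and was not called (limma adjusted p = 0.318), but under the 3 other scalings, which take out the shift of all genes, it was -0.39 to -0.40 and called (limma adjusted p of 0.037 to 0.0431). It read 6.4, 5.94 and 6.19 RPKM in AOS and 9.84, 8.14 and 10.0 RPKM in STZ+AOS, above every AOS and every STZ mouse. STZ+AOS exceeded AOS by 0.52 ± 0.11 (limma adjusted p = 0.00308), and without AOS mouse 3 and Con mouse 3 also by 0.52 (limma adjusted p = 0.0104). Under the 3 other scalings it was 0.27 to 0.30 and not called (limma adjusted p of 0.0813 to 0.104). The change of STZ+AOS against STZ was 0.47 ± 0.11 (unadjusted p = 0.000792, limma adjusted p = 0.806), and it did not pass. In that comparison limma called 0 of 10822 genes (0%), with 657 genes at an unadjusted p under 0.05, Myd88 alone among the members.

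Tnfaip3 (chromosome 10, 19000910 to 19015657, minus strand), an ubiquitin-editing enzyme that shuts off NF-κB signalling, read 0.51, 0.54 and 0.61 RPKM in Con and 0.75, 1.27 and 1.96 RPKM in STZ, without overlap. The A10-FMT mice read 0.44, 0.50 and 0.47 RPKM and the Con-FMT mice 0.73, 0.46 and 0.28 RPKM, all below every STZ mouse. It read 0.64, 0.54 and 0.46 RPKM in AOS and 1.29, 0.58 and 1.34 RPKM in STZ+AOS, where STZ+AOS mouse 2 lay within the AOS range. The change there was 0.40 ± 0.18 and was not called (limma adjusted p = 0.084), and since the gene passed the filter only through STZ and STZ+AOS mice, this is given as a description. Without any filter its change in STZ against Con was 0.55 (limma adjusted p = 0.038). Irak3 (chromosome 10, 120141648 to 120202130, minus strand) read 1.17, 0.25 and 0.89 RPKM in Con, 0.55, 0.57 and 0.27 RPKM in STZ and 2.31, 0.31 and 0.61 RPKM in STZ+AOS. It was at most 0.36 RPKM in all 9 mice of the A10-FMT, Con-FMT and AOS groups.

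The transplants were compared with STZ for the members as a whole. Of the 7 tested members, none was called in A10-FMT against STZ or in Con-FMT against STZ by limma, where 0.226% (24 genes) and 0.00943% (1 gene) of 10602 genes were called, and 3 and 2 members had an unadjusted p under 0.05. The groups did not overlap for 4 members in A10-FMT against STZ (Nfkbia, Cd14 and Lbp below, Tlr5 above), beside 21.5% of all genes, and for 3 in Con-FMT against STZ (Nfkbia and Cd14 below, Tlr5 above), beside 17.7%. Between A10-FMT and Con-FMT, 0% of 10602 genes were called by limma, 303 had an unadjusted p under 0.05 and none of them was a member. The confidence intervals of that difference were -0.32 to 0.38 for Nfkbia and -0.13 to 0.59 for Tlr5.

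Whether streptozotocin acted differently with and without AOS was tested as the difference between STZ+AOS against AOS and STZ against Con. It was called by limma for 0% of 10822 genes, with 584 genes at an unadjusted p under 0.05. Among the members, Myd88 (0.67 ± 0.16) and Cd14 (2.35 ± 0.78) had an unadjusted p under 0.05, with a limma adjusted p of 0.856 each. The calls of Cd14, Lbp and Myd88 in 1 comparison only are thus not shown to differ between the comparisons.

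The genes around the members were followed through lists. These lists, like the acute-phase list above, were chosen with earlier results of these data known, so their counts are given as descriptions. Of the 14 tested feedback inhibitors of the pathway (18 in the list), 8 were higher and none lower in STZ against Con, and 8 higher and none lower in STZ+AOS against AOS, with 7 higher in both. Over all genes, 33% were higher and 5.52% lower in the first comparison, 31.8% higher and 6.11% lower in the second, and 22.9% higher in both. The median change of the inhibitors was 0.36 and 0.43, beside 0.21 over all genes. Itch, a ubiquitin ligase that works with A20, rose from 10.3 ± 0.80 to 18.03 ± 1.86 RPKM (SD, n = 3) in STZ, a change of 0.75 ± 0.12 (limma adjusted p = 0.00163), and by 0.76 ± 0.12 in STZ+AOS (limma adjusted p = 0.000392). Atf3, a transcriptional repressor, rose by 0.92 ± 0.17 in STZ (limma adjusted p = 0.00279) and was not called in STZ+AOS against AOS (1.06 ± 0.50, limma adjusted p = 0.103). Atf3 read 0.80 RPKM or less in Con and passed the filter only through groups given streptozotocin. Its call, which counts among the 8 in STZ against Con, is therefore given as a description. With median-ratio scaling the count was 5 higher and 1 lower in STZ against Con and 2 higher in STZ+AOS against AOS.

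Of the NF-κB subunits and IκB proteins, 7 of 10 were tested in the first comparison, where 1 was higher and 1 lower, and 8 in the second, where 2 were higher and 1 lower. The shares of all genes were 33% higher and 5.52% lower in the first comparison, and 31.8% higher and 6.11% lower in the second. With median-ratio scaling this list had 1 higher and 2 lower in each comparison. Nfkbiz, an inducible nuclear IκB, rose from 2.98 ± 0.31 to 6.60 ± 0.47 RPKM in STZ (0.93 ± 0.10, limma adjusted p = 0.000314) and by 0.99 ± 0.17 in STZ+AOS (limma adjusted p = 0.000703). Bcl3, another nuclear IκB, fell from 14.5 ± 0.31 to 7.35 ± 3.18 RPKM in STZ (-0.96 ± 0.20, limma adjusted p = 0.00491) and by 0.52 on the log2 scale in STZ+AOS (limma adjusted p = 0.0419). Of 21 tested adaptors and kinases, 4 were higher and 1 lower in STZ against Con, and 9 higher and none lower in STZ+AOS against AOS, where 31.8% of all genes were higher. With median-ratio scaling the calls were 1 higher and 3 lower in the first comparison and 2 higher and 2 lower in the second. Peli1 and Traf6, ubiquitin ligases that carry the signal from the receptors, rose by 0.51 ± 0.10 (limma adjusted p = 0.00312) and 0.51 ± 0.12 (limma adjusted p = 0.00758), and Tirap, the bridging adaptor of TLR2 and TLR4, fell by 0.60 on the log2 scale (limma adjusted p = 0.0032). In STZ+AOS against AOS Traf6 rose by 0.51 (limma adjusted p = 0.00785), while Peli1 (0.31, limma adjusted p = 0.0786) and Tirap (-0.16, limma adjusted p = 0.224) were not called.

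**Figure D4:**
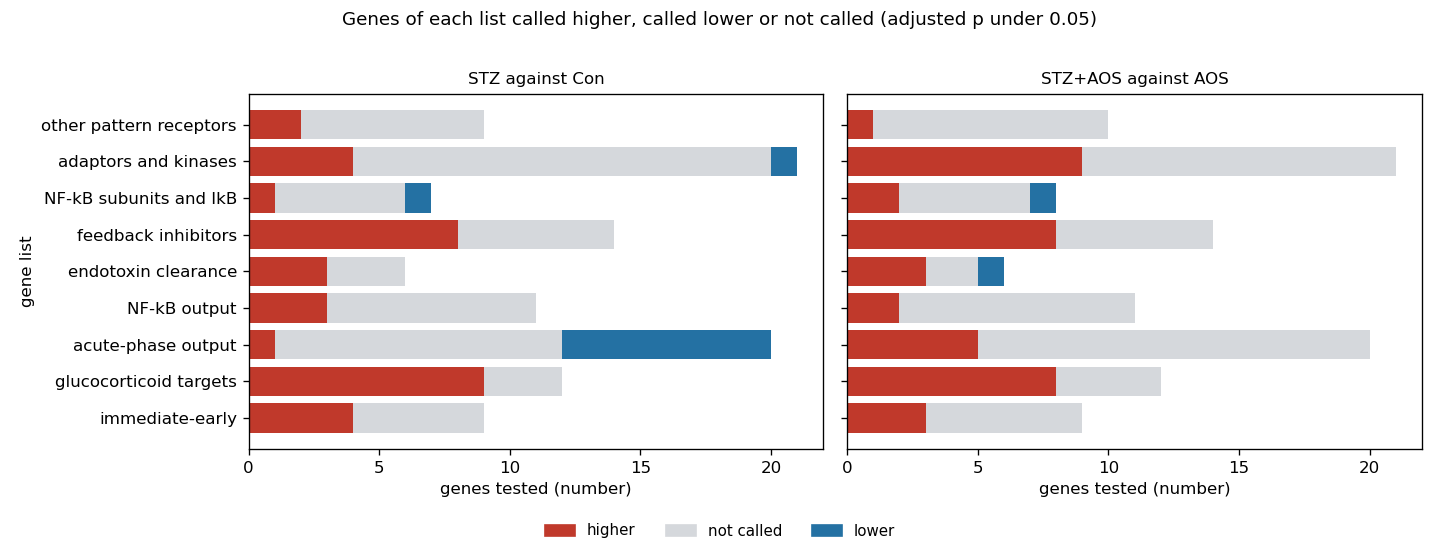
Number of tested genes of each list that were called higher, called lower or not called (limma adjusted p under 0.05), in STZ against Con and in STZ+AOS against AOS. Feedback inhibitors had 8 of 14 higher in each comparison, and acute-phase genes had 8 of 20 lower in the first and 5 of 20 higher in the second. Over all genes, 33% were higher and 5.52% lower in the first, and 31.8% higher and 6.11% lower in the second.

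Of 6 tested genes that take up or disarm endotoxin, 3 were higher in each comparison (Scarb1, Marco and Alpl), beside 33% and 31.8% of all genes, and 1 was lower in STZ+AOS against AOS (Pltp, a phospholipid transfer protein). Alpl and Pltp were named after their values were seen. Without Con mouse 3 and AOS mouse 3, and with median-ratio scaling, these counts were the same. Scarb1, a lipoprotein receptor that also takes up lipopolysaccharide, rose from 52.0 ± 6.06 to 128.7 ± 23.2 RPKM in STZ (1.28 ± 0.20, limma adjusted p = 0.00106), and Marco, a macrophage scavenger receptor, from 2.70 ± 0.80 to 32.7 ± 30.5 RPKM (2.79 ± 0.68, limma adjusted p = 0.00936). Of 9 other pattern receptors tested, 2 were higher and none lower in STZ against Con, Pglyrp2 (0.60 ± 0.16, limma adjusted p = 0.0124) and Tlr3 (0.29 ± 0.10, limma adjusted p = 0.0365), whereas with median-ratio scaling none was higher and 3 were lower. Of 11 output genes of NF-κB tested, 3 were higher in STZ against Con, among them Ccl2 (0.91 ± 0.26, limma adjusted p = 0.0174) and Vcam1 (0.94 ± 0.31, limma adjusted p = 0.0341), and 2 were higher in STZ+AOS against AOS (Icam1 and Cxcl1, with Icam1 called in both). With median-ratio scaling 1 was higher in STZ against Con and 2 in STZ+AOS against AOS. Ccl2 (0.21, limma adjusted p = 0.484) and Vcam1 (0.70, limma adjusted p = 0.0593) were not called in STZ+AOS against AOS. Ccl2 read 0.65 RPKM or less in Con and passed the filter only through groups given streptozotocin. Its call, which counts among the 3, is therefore given as a description. Without Con mouse 3, 1 other pattern receptor, 6 feedback inhibitors, 2 adaptors and kinases and 1 output gene were called higher in STZ against Con. Without AOS mouse 3 and Con mouse 3, 5 feedback inhibitors, 6 adaptors and kinases and 2 output genes were called higher in STZ+AOS against AOS. Of the single genes named from these lists, Tlr3 (limma adjusted p = 0.12) and Vcam1 (limma adjusted p = 0.0869) lost their call in STZ against Con without Con mouse 3, and Bcl3 (limma adjusted p = 0.11) and Pglyrp2 (limma adjusted p = 0.074) theirs in STZ+AOS against AOS without AOS mouse 3 and Con mouse 3. With median-ratio scaling Pglyrp2, Tlr3, Traf6 and Vcam1 were not called in STZ against Con.

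Marker genes of other liver cells were read beside the members. Over all genes, 33% were higher and 5.52% lower in STZ against Con, and 31.8% higher and 6.11% lower in STZ+AOS against AOS. Kupffer cell and macrophage markers had 2 of 12 higher in STZ against Con and 0 of 12 in STZ+AOS against AOS, not above these shares. Their summed level was 157 to 235 RPKM in Con, 221 to 410 RPKM in STZ, 197 to 260 RPKM in AOS and 240 to 330 RPKM in STZ+AOS. Sinusoidal endothelial markers had 2 of 8 higher in the first comparison and 1 of 8 in the second, also not above these shares. Without Con mouse 3, no Kupffer cell marker and 1 endothelial marker were called in STZ against Con. Of 2 neutrophil markers tested in STZ against Con, S100a9 was lower, and of 3 tested in STZ+AOS against AOS, S100a9 and Retnlg were higher. Without Con mouse 3, 0 neutrophil markers were called in STZ against Con. Without AOS mouse 3 and Con mouse 3, 1 was higher in STZ+AOS against AOS. With median-ratio scaling 1 was lower in the first comparison and 0 were called in the second. Of the monocyte markers, 1 of 2 was higher in the first comparison (Plac8) and 2 of 3 in the second (Plac8 and Chil3). In each comparison 1 monocyte marker was higher without Con mouse 3 and AOS mouse 3, and also with median-ratio scaling. Neutrophil markers summed to 1.62 to 21.5 RPKM over all libraries, with the top value in 1 STZ+AOS library. Their median was 7.68 RPKM in STZ+AOS and 7.78 RPKM in Con. Monocyte markers summed to 7.36 to 30.1 RPKM, with the top value also in STZ+AOS. Their median was 17.33 RPKM in STZ+AOS and 14.5 RPKM in STZ. No marker of these lists was at 0 in all 18 libraries. The part of cell composition in the members' changes was not tested.

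Target genes of the glucocorticoid receptor, a nuclear receptor that also induces Nfkbia in many tissues, were read beside Nfkbia: 9 of 12 were higher in STZ against Con and 8 of 12 in STZ+AOS against AOS, beside 33% and 31.8% of all genes. Their summed level was 1125 to 1700 RPKM in Con, 2537 to 6475 RPKM in STZ, 894 to 1194 RPKM in AOS and 4906 to 10143 RPKM in STZ+AOS. In AOS, where Nfkbia stood above every Con mouse, the summed level overlapped with that of Con. The metallothioneins Mt1 and Mt2, which count in this sum, differed from Con by -2.64 and -2.37, neither of which was called (limma adjusted p = 0.542 and 0.586). The median change of the 12 targets in AOS against Con was 0.19, beside 0.06 over all genes, and none was called. In A10-FMT against STZ 2 of 12 were lower, Klf9 and Zbtb16, where 0.226% of all genes (24 of 10602) were called. In Con-FMT against STZ 0 of 12 were called. No gene at all was called in A10-FMT against STZ without STZ mouse 2, A10-FMT mouse 2, A10-FMT mouse 3 or Con mouse 3, so these calls rest on single mice. Immediate-early genes had 4 of 9 higher in STZ against Con, Atf3 among them, and 3 of 9 in STZ+AOS against AOS. These lists were also chosen with earlier results of these data known. The part of the glucocorticoid and immediate-early responses in the level of Nfkbia was not tested.

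Across all 18 libraries, the genes whose log2(RPKM + 1) followed Nfkbia most closely were Hbp1 (r = 0.971), Fxr1 (r = 0.967) and Hipk3 (r = 0.966), and those that followed Tlr5 were Gstm6 (r = 0.892), Cyp2j5 (r = 0.892) and Ghr (r = 0.885). Hipk3, a protein kinase, read 6.62 ± 0.79 RPKM in Con and 14.6 ± 2.95 RPKM in STZ. Ghr, the growth hormone receptor, read 202 ± 33.2 RPKM in Con and 104.9 ± 37.2 RPKM in STZ. These are the highest of 10822 Pearson correlations for each gene over libraries that share group differences, and they are given as a description.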

How the data were processed

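Liver RNA of 18 mice was sequenced, 3 per group, and grouped by the labels. The authors deposited 1 table of RPKM values (19057 rows, 3 with a repeated symbol, all kept). Their methods name oligo(dT) libraries, an Illumina HiSeq and SOAPaligner, whereas the submitters' processing notes list Bowtie 0.12.2 and build mm10; which of these made the table is unknown. RPKM divides by the library total, so abundant transcripts that differ between groups shift all others. Read counts and depth are unknown; in 11 low genes whose values were whole multiples of 1 step (within 13%), relative depth was 0.929 to 1.08. The labels number the samples of a group as replicates without tying each to 1 named animal, so p-values measure the spread between these samples.

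log2(RPKM + 1) was fitted with limma 3.58.1 (R 4.3.3) with an intensity trend, over 12 libraries for the Con, STZ, A10-FMT and Con-FMT contrasts and over 18 for those with AOS, for genes of at least 1 RPKM in at least 3 libraries. P-values were adjusted (Benjamini-Hochberg) over all genes tested and called under 0.05, and intervals are 95%. All tests were 2-sided. Alternatives were other scalings (quantile, median centring, median ratio), no trend, a pseudocount of 0.1, other filters, other library sets, mouse number as a block (same-numbered deviations correlated above 0.1 in all 3 pairs only for A10-FMT with Con-FMT, at 0.12, 0.29 and 0.18), the limits of the study (FDR of 0.001 and log2 change of 1) and each mouse left out. Leaving out Con mouse 3 with AOS mouse 3, and Con mice 1 and 3 with STZ+AOS mouse 1, was chosen after seeing the data. Scripts were tested on simulated data.

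The members and lists were chosen with earlier results of these data known. All 10 members are named, with at most 2 higher and 2 lower genes of smallest adjusted p per pathway list in STZ against Con, and the 3 genes most correlated with the members called there. Gene positions are from GENCODE M21 and promoter windows from RefSeq.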

Additional observations from a re-analysis of the deposited data

How the results depend on the processing

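The number of members called changed with the processing in 6 of the 10 comparisons. In STZ against Con it went from 2 to 1 (Nfkbia kept) with a filter of 1 RPKM in every library, with only the groups compared, with the limits of the study and with either added choice of libraries left out, and it was 1 to 2 when each mouse was left out. It was 3, with Myd88 lower, under all 3 scalings, and 3, with Tnfaip3 higher, with no filter or with all 6 groups in the fit. With all 6 groups Tnfaip3 passed the filter only through STZ and STZ+AOS libraries, in which it was high, so this call is given as a description. In A10-FMT against STZ the number called was 1 (Tlr5) with all 6 groups in the fit and 0 to 2 when each mouse was left out. In Con-FMT against STZ it was 1 (Nfkbia) with quantile, median-centred and median-ratio scaling and 0 to 2 when each mouse was left out. In A10-FMT against Con it was 2 with median centring, 0 with the limits of the study and with either added choice, and 0 to 4 when each mouse was left out. The 4 (Cd14, Lbp, Tlr2 and Nfkbia) came without Con mouse 2. In Con-FMT against Con it was 0 with quantile scaling, with the limits of the study and without Con mice 1 and 3, and 0 to 2 when each mouse was left out, and the 1 member called with median centring or without Con mouse 3 was Ly96 in place of Nfkbia. In STZ+AOS against AOS it went from 5 to 3 (Cd14, Nfkbia and Tlr5) under all 3 scalings and to 0 with the limits of the study. It was 4 with no filter, with 1 RPKM in every library and with either added choice, and 4 to 6 when each mouse was left out. The 6 came without STZ+AOS mouse 2 and included Tnfaip3, which has the same limit. In the other comparisons the number called stayed at 0. Except for the limits of the study, which ask for more than an adjusted p under 0.05, and the smaller sets of mice, the cause was not tested.

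Of 1308 changes of single members recomputed under the alternatives, 1185 kept their direction and their side of the threshold, 32 lost the call, 20 gained it and 71 changed sign. None of the 71 was called in either fit, and most were near 0. With quantile normalization the values were Cd14 -0.12 in STZ against Con, Myd88 0.023 in A10-FMT against Con-FMT, Ly96 -0.026 in STZ+AOS against STZ and Ly96 -0.22 in STZ+AOS against AOS. With median centring they were Cd14 -0.11 in STZ against Con, Tlr5 -0.027 in A10-FMT against Con, Myd88 0.021 in A10-FMT against Con-FMT, Ly96 -0.021 and Nfkbia -0.00020 in STZ+AOS against STZ and Ly96 -0.23 and Tlr2 -0.033 in STZ+AOS against AOS. With median-ratio scaling they were Cd14 -0.11 in STZ against Con, Myd88 0.0066 in A10-FMT against Con-FMT and Ly96 -0.19 in STZ+AOS against AOS. Without Con mouse 3 and AOS mouse 3 they were Lbp 0.071 in STZ against Con, Myd88 0.039 in A10-FMT against Con, Myd88 0.049 in Con-FMT against Con and Tnfaip3 0.060 in AOS against Con. Without Con mice 1 and 3 and STZ+AOS mouse 1 they were Myd88 0.045 and Lbp 0.91 in STZ against Con, Myd88 0.12, Cd14 0.43, Lbp 0.16 and Tlr5 -0.013 in A10-FMT against Con, Myd88 0.13, Cd14 0.56 and Lbp 0.64 in Con-FMT against Con, Lbp 0.21, Tlr2 0.18 and Tnfaip3 0.0046 in AOS against Con, Tlr2 -0.034 in STZ+AOS against STZ and Lbp -0.077, Tlr2 -0.22 and Tlr5 0.036 in the difference of the streptozotocin changes. When each mouse was left out in turn the ranges were Cd14 -0.63 to 0.69, Lbp -0.50 to 0.34 and Tlr2 -0.37 to 0.040 in STZ against Con. They were Ly96 -0.10 to 0.089 in A10-FMT against STZ. They were Lbp -0.48 to 0.10 in Con-FMT against STZ. They were Myd88 -0.18 to 0.039 and Tlr5 -0.00063 to 0.23 in A10-FMT against Con. They were Myd88 -0.17 to 0.049 and Lbp -0.76 to 0.076 in Con-FMT against Con. They were Myd88 -0.054 to 0.049 and Nfkbia -0.069 to 0.092 in A10-FMT against Con-FMT. They were Tnfaip3 -0.050 to 0.033 in AOS against Con. They were Ly96 -0.15 to 0.17, Tlr2 -0.056 to 0.36, Nfkbia -0.12 to 0.23, Tnfaip3 -0.35 to 0.032 and Tlr5 -0.018 to 0.26 in STZ+AOS against STZ. They were Ly96 -0.18 to 0.15 in STZ+AOS against AOS. They were Tnfaip3 -0.34 to 0.040 and Tlr5 -0.20 to 0.083 in the difference of the streptozotocin changes.

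Mouse number as a replicate block changed no call of a member, with 2, 0, 0, 1, 1, 0, 0, 0, 5 and 0 members called in the 10 comparisons, and 3714 genes in place of 4087 in STZ against Con. Nothing in the labels ties the same-numbered mice of different groups together. All 3 pairs correlated above 0.1 only for A10-FMT with Con-FMT, where the block called 0 members and 0 genes, as without it. Deviations of same-numbered mice from their group means correlated at -0.25 to 0.47 over 45 pairs, 16 of them above 0.1, and 9 of 18 libraries correlated best with their own number. Depth is unknown, and 3 mice per group limit the size of change that can be called.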
